A study of Solanum lycopersicum with 27 samples.

Results

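The 114 genes described here were higher in chilled tomato shoots than before chilling, while their level in chilled roots was at most 25% above the level before chilling. They were taken from 18970 gene IDs that both the shoot table and the root table list. A gene was kept when its mean normalised count in shoots after 3 h at 4°C was at least 50, at least 2 times the mean of T0 replicates 1 to 3 and at least 2 times the mean at 24°C, where T0 is the sample taken just before treatment. In roots its T0 mean had to be at least 20 and its 4°C mean at most 25% above that T0 mean. The shoot conditions alone were met by 238 genes, of which 228 had a root T0 mean of at least 20, and 114 of those were set aside because their root level at 4°C passed the ceiling. The genes were thus chosen by the measured group means of shoots after 3 h at 4°C and at 24°C and at T0, and of roots after 3 h at 4°C and at T0, and these values are given below as a description, with no test.

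The study asked how a chilling-sensitive crop responds to its first hours of cold, in shoots and in roots. Seedlings of the cultivar M82, all of the same genotype and 18 days old, stood in hydroponic solution and were moved 2.5 hours after the lights came on into fresh containers at 4°C or at 24°C, both in the light. The groups used here are shoots after 30 min at 4°C and at 24°C, shoots after 3 h at 4°C and at 24°C, roots after 3 h at 4°C and at 24°C, with 3 libraries each, and T0 samples of 6 shoot and 3 root libraries. Each library came from a pool of 4 seedlings, so n counts pools. The study states that 3 T0 shoot samples shared a batch with the 3 h shoots and another 3 with the 30 min shoots. The sample labels carry no batch, so T0 replicates 1 to 3 are only assumed to be the former and 4 to 6 the latter. The study's methods count 6 T0 shoot samples, while the protocol filed with the data counts 3. Whether T0 replicates 4 to 6 were other pools than replicates 1 to 3 is thus not settled.

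In plants, cold is sensed within minutes through changes at membranes and a rise of calcium in the cytosol, which calmodulin-like proteins and kinases pass on. Transcription factors of the AP2/ERF family follow, among them the CBF (also called DREB1) proteins, which bind the promoters of cold-protection genes, together with WRKY, MYB and zinc finger factors. Many of these genes also follow the time of day and respond quickly to handling, wounding and other stresses, so a control kept at ambient temperature over the same hours is part of the comparison.

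Values are normalised read counts that the authors scaled within each organ. Every shoot library sums to between 20328938 and 20332140 and every root library to between 37775630 and 37777083, so the values do not carry sequencing depth, and levels are compared only within an organ. Plastid photosynthesis genes, which mark green tissue, held 0.0197% to 0.912% of the total in shoot groups, over 27 genes, and 0.00109% to 0.00164% in root groups, over 12. Over all plastid genes the share in shoots was 6.74% at 4°C and 0.284% at 24°C after 3 h, and 4.96% at 4°C and 0.423% at 24°C after 30 min. It was 0.503% in T0 replicates 1 to 3 and 2.18% in T0 replicates 4 to 6, and its part in the results below was not tested beyond a rescaling over nuclear genes. The median log2 difference of all tested features between 4°C and 24°C was -0.28 in shoots at 3 h, -0.07 in shoots at 30 min and -0.11 in roots, and after that rescaling it was -0.02, -0.01 and 0.00. In such bulk samples fewer cells of a type and less RNA per cell cannot be told apart.

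Taken as 1 sum, the 114 genes held 0.898%, 0.813% and 0.705% of the shoot total in the libraries chilled for 3 h, against 0.0806%, 0.0808% and 0.0833% at 24°C. At T0 the sum stood between 0.197% and 0.357% in the 6 shoot libraries, so the 24°C libraries were below every T0 library and the 3 h chilled ones above. In roots the same genes held 1.63%, 1.53% and 1.36% of the total at 4°C, against 0.330%, 0.346% and 0.372% at 24°C and 1.52%, 1.48% and 1.42% at T0. The root libraries at 4°C and at T0 overlapped, while those at 24°C lay far below both. For this sum, the name given to the group, cold-induced in shoots and not in roots, holds against T0, where the rule set it. It does not hold for the sum against roots kept at 24°C for the same 3 h. Gene by gene the contrast with 24°C in roots was mixed, as given below.

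**Figure D1:**
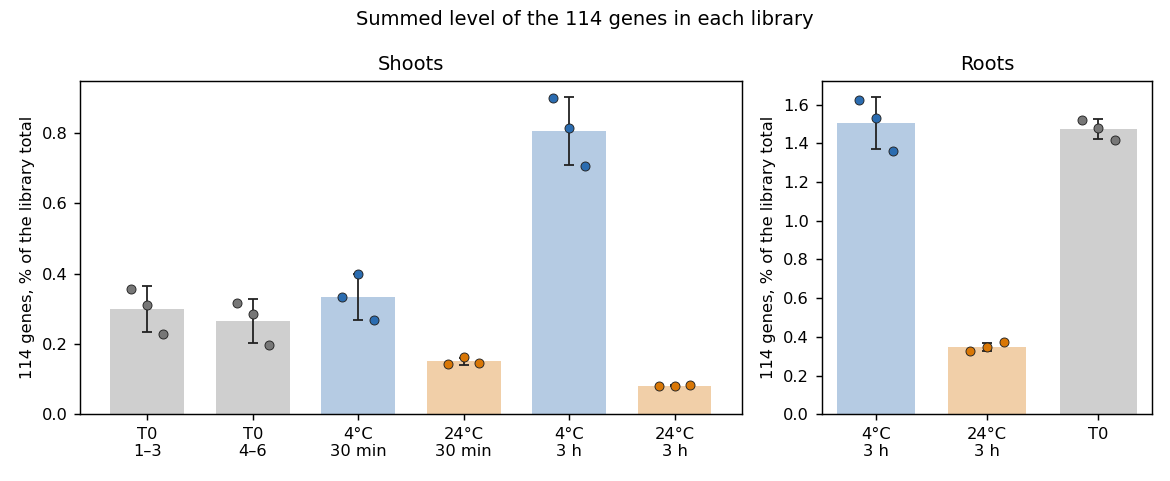
Summed normalised counts of the 114 genes as a percentage of the library total (y axis, a scale for each organ) in shoot and root groups (x axis); points are libraries, bars group means and error bars the SD over 3 libraries. In shoots the 3 h libraries average 0.805% at 4°C and 0.0816% at 24°C; in roots the averages are 1.51% at 4°C, 0.349% at 24°C and 1.47% at T0.

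Gene by gene, the level in shoots at 3 h was a median 2.79 times T0 at 4°C, with a range of 2.01 to 48.2 times. The same genes stood at a median of 0.278 of T0 at 24°C, and only 12 of 114 were above T0 there. Of the 110 genes with a T0 mean of at least 10, 75 (68.2%) were at or below 0.5 of T0 at 24°C, against 7.35% of all IDs with such a T0 mean. Both sides of that ratio were used by the rule, which favours a low value at 24°C, so nothing is read from this share. The 2 sides together gave a median ratio of 9.12 between 4°C and 24°C over the 111 genes with a value above 0 at 24°C, and the other 3 were listed at 0 in all of the 24°C libraries at 3 h. In roots the 4°C mean was a median 0.945 of T0, with the lowest at 0.255 and the highest at the ceiling, and 80 of 114 genes were at 0.8 or above.

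The cutoffs ran through a continuous range of values. LEA14 (Solyc01g095140) at 2.01 and MYB15 (Solyc09g090130) at 2.02 times T0 in chilled shoots were just inside, and WRKY33 (Solyc06g066370) at 1.997 and emb1075 (Solyc08g068680) at 1.993 just outside. At the root ceiling SRC2 and SlCBF2 entered with ratios of 1.243 and 1.245, while XTH15 (Solyc07g056000) at 1.253 did not. With each of the 15 libraries of the rule left out in turn (the 24°C root libraries are not part of it), 59 of the 114 genes stayed in every time, 27 were lost once and 28 more often. With T0 replicates 4 to 6 in place of 1 to 3 the shoot level at 4°C was still above T0 for 114 of 114 genes, at a median of 3.43 times, and 99 of the 114 met the whole rule. Of the 109 genes with a mean of at least 10 in T0 replicates 4 to 6, 94 (86.2%) were at least 2 times that mean, against 4.02% of all such IDs, and in 109 of 114 all 3 chilled libraries were above these 3 T0 libraries, against 26.3% of all features. The chilled libraries in these ratios are those the rule selected on, so the shares are a description. These T0 libraries are assumed to come from another batch than the 3 h ones. They may not be pools other than those of T0 replicates 1 to 3.

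**Figure D2:**
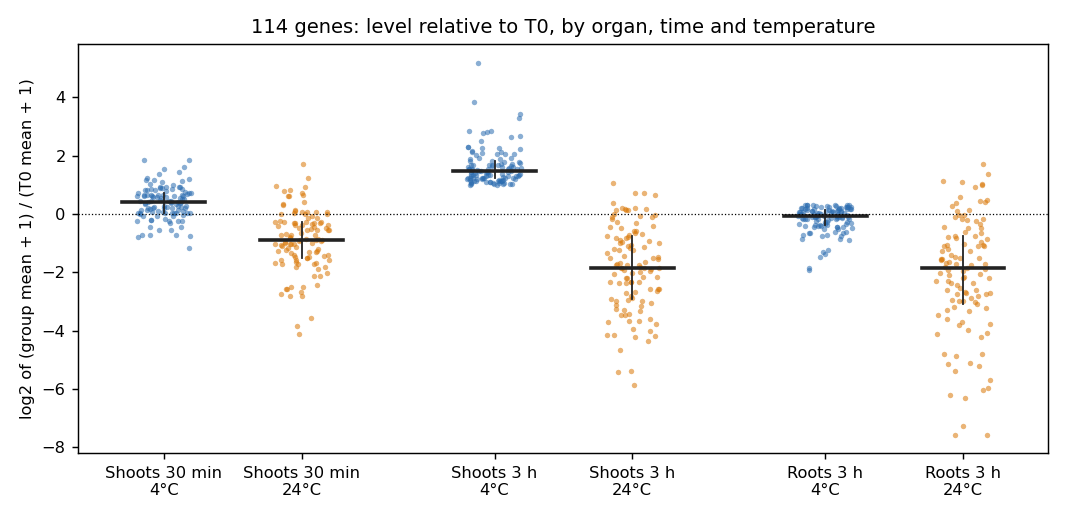
Level of each of the 114 genes relative to T0, as log2 of group mean plus 1 over T0 mean plus 1 (y axis), with T0 replicates 4 to 6 for 30 min shoots and 1 to 3 for 3 h shoots; points are genes, thick bars medians and thin lines the middle 50% of genes. Genes at 4°C lie above 0 in 3 h shoots and near 0 in roots by the rule that chose them, and at 24°C most lie below 0 in both organs.

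The 30 min shoot libraries took no part in choosing the genes. After 30 min, 46 of the 114 genes were called higher at 4°C than at 24°C and 2 lower (limma, adjusted p under 0.01), or 40.4% higher against 2.85% of all 20535 tested features (3.22% were lower). The median log2 difference was 1.16 over the 114 genes and -0.07 over all features. In 73 of 114 genes all 3 chilled libraries were above all 3 at 24°C, which was so for 7.97% of all features, and in 3 all were below, against 16.8%. The largest called differences among named genes were in SlCBF2, WRKY22, both emb1075 genes, BCS1, DREB1D, WRKY33 and WRKY41, and 2 unnamed AP2/ERF genes, Solyc12g009240 and Solyc06g035700, were higher still or close behind. Solyc12g009240 differed by 5.05 on the log2 scale (standard error 0.77, adjusted p = 0.000174). Solyc06g035700 differed by 4.29 (standard error 0.58, adjusted p = 4.68e-05).

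Against T0 replicates 4 to 6, assumed to be of the same sequencing batch, the 30 min difference lay mostly on the ambient side. At 24°C 36 of 114 genes were called lower than T0 replicates 4 to 6 and 5 higher, against 4.52% and 3.96% of all features, with a median log2 difference of -0.77. At 4°C 5 of 114 were called higher than the same T0 libraries and 0 lower, against 1.93% and 5.17% of all features, with a median of 0.39. In 21 of 114 genes all 3 chilled libraries lay above those 3 T0 libraries, against 8.11% of all features. Of the named genes UPM1 was among those 5. That count was 1 without 4°C replicate 1 and also 1 without T0 replicate 6. These comparisons share their T0 libraries, and a gene that missed the threshold is not thereby shown to be level. If T0 replicates 4 to 6 are the same pools as 1 to 3, the rule, which favours a low shoot T0, bears on both.

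In roots the 24°C libraries took no part in the rule, although the 4°C and T0 libraries did. At 3 h 76 of 114 genes were called higher at 4°C than at 24°C (66.7%, against 18.0% of all 20680 features) and 13 lower (11.4%, against 28.0%). The median log2 difference was 1.74 for the 114 genes and -0.11 for all features. With values rescaled over nuclear genes the counts were 78 higher and 8 lower. At 24°C 82 genes were called lower than T0 and 9 higher, against 16.2% and 23.9% of all features. By group means 71 of the 114 were at least 2 times as high at 4°C as at 24°C and 23 at least 10 times, up to 222 times in DREB1D, while 8 were at or below 0.5. The shares of all features with such ratios were not computed, so these counts are a description. In 86 genes all 3 chilled root libraries were above all 3 at 24°C, against 27.6% of all features, and in 15 all were below, against 41.7%. Relative to T0, 80 of 114 (70.2%) were at or below 0.5 in roots at 24°C, against 8.51% of all IDs with a T0 mean of at least 10. The rule admits genes with a high T0 or a low 4°C value in roots, which bears on both of these contrasts.

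Of the 46 genes called higher at 30 min in shoots, 40 (87.0%) were also called higher in roots, 1 lower and 5 neither. Over all 18961 IDs tested in both organs, 296 of the 438 called higher at 30 min (67.6%) were also called higher in roots, where the calls covered 66.7% of the 114 genes and 17.9% of all those IDs. Of the 13 called lower in roots, 1 was called higher at 30 min, 1 lower and 11 neither. Across the 114 genes the 2 log2 differences had Pearson's r of 0.62 and Spearman's rho of 0.60, as a description over genes, which are not independent samples. Over all IDs tested in both organs r was 0.43 and rho 0.27. These 2 contrasts share no library, but the root one holds 4°C libraries that the rule used.

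**Figure D3:**
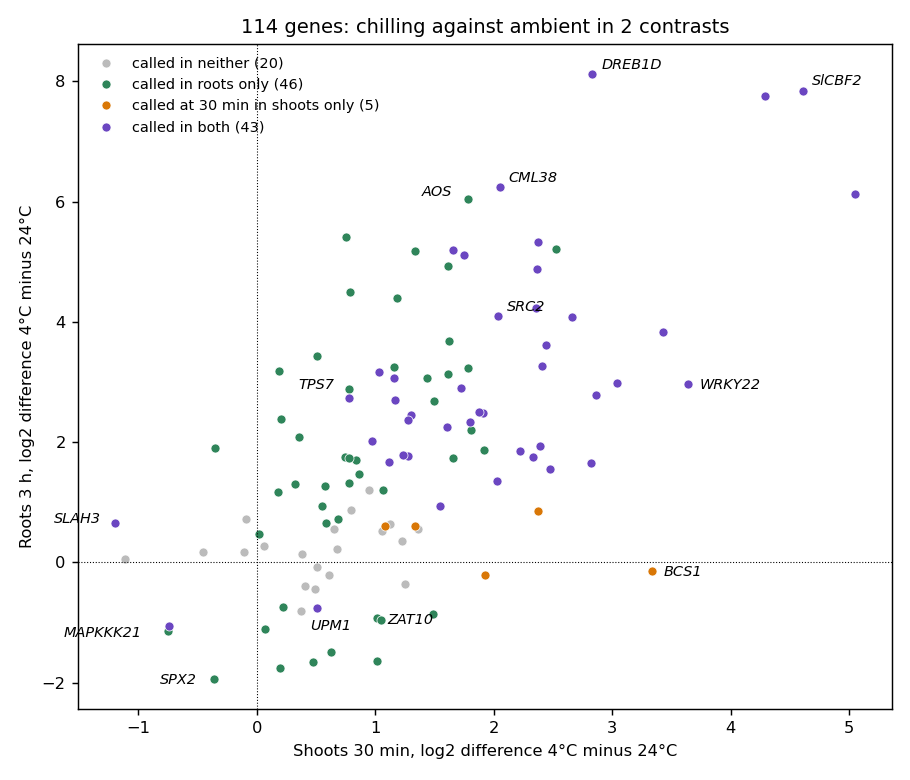
Log2 difference between 4°C and 24°C for each of the 114 genes, in shoots after 30 min (x axis) and in roots after 3 h (y axis), coloured by which contrast limma called at an adjusted p under 0.01. DREB1D and SlCBF2 stand at the top with root differences of 8.12 and 7.84, SPX2 at the bottom with -1.93, and BCS1 to the right with -0.14 in roots.

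Among the AP2/ERF factors, 10 of 65 listed genes were among the 114. The list, like those of the other factor families below, is not the whole family but the study's table of factors that responded in these same samples, so its counts are not independent evidence of a direction. SlCBF2 (Solyc03g124110), a tomato CBF gene, had 370, 319 and 402 normalised counts in shoots after 3 h at 4°C, against 1.44, 0.044 and 0.027 at 24°C and 34.2 to 152 in the 6 T0 libraries. After 30 min it had 212, 157 and 93.4 at 4°C, against 8.72, 2.23 and 5.91 at 24°C. The gene was thus nearly absent from shoots kept at 24°C. Its chilled libraries at 30 min overlapped T0 replicates 4 to 6, which held 152, 34.2 and 91.9. The 30 min difference was 4.61 on the log2 scale (standard error 0.53, adjusted p = 7.12e-06), higher in 3 of 3 libraries.

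Roots kept the SlCBF2 transcript at 4°C as well, with 3208, 3367 and 2846 counts, against 8.60, 7.33 and 30.7 at 24°C. Their T0 libraries gave 1540, 1469 and 4557, so T0 replicate 3 alone lay above the chilled roots. Without that library the ratio of 4°C to T0 was 2.09 in place of 1.245, and the gene would not have met the rule. Of the 3 tomato CBF genes named in the study, SlCBF2 alone was a member, and all 3 were called higher at 4°C than at 24°C at 30 min in shoots and at 3 h in roots.

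DREB1D (Solyc08g007820), named after an Arabidopsis gene of the same subfamily, behaved much like SlCBF2. In shoots it had 1434, 1142 and 1006 counts after 3 h at 4°C, against 55.6, 38.4 and 41.9 at 24°C and 104 to 375 at T0. In roots it had 6711, 5914 and 5329 at 4°C, against 7.76, 19.6 and 53.3 at 24°C and 5622, 5629 and 4661 at T0. The root difference of 8.12 (standard error 0.51, adjusted p = 1.61e-06) was the highest among the 114 genes. At 30 min in shoots it was 2.83 (standard error 0.39, adjusted p = 5.04e-05), with 226, 385 and 162 at 4°C against 28.1, 45.0 and 28.5 at 24°C.

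RRTF1 (Solyc10g050970), named after a redox-responsive factor of Arabidopsis, was listed at 0 in all 3 shoot libraries at 24°C and 3 h and at 139, 126 and 96.1 at 4°C. In roots it had 1701, 1382 and 849.5 counts at 4°C, against 27.6, 21.9 and 58.7 at 24°C, a difference of 5.21 (standard error 0.36, adjusted p = 2.75e-06), while its T0 libraries held 1939 to 2788. ERF3 (Solyc10g006130) and ERF5 (Solyc08g078190), ethylene response factors, were called higher at 30 min by 1.80 and 2.22 and in roots by 2.34 and 1.85. The 2 genes named ERF-1 differed from this: the copy on chromosome 3 (Solyc03g093610) was called in roots at 0.66 and not at 30 min (0.58), and the copy on chromosome 5 (Solyc05g052050) was called at 30 min at 1.33 and not in roots (0.60). The call at 30 min for the chromosome 5 copy was lost in 8 of 15 alternatives, with adjusted p from 2.17e-05 to 0.0418. Over the 10 members of the family, 8 were called higher at 30 min and 9 in roots, and 0 lower in either. Over the listed genes that were tested, 23 of 53 were called higher and 3 lower at 30 min, and 34 of 65 higher and 15 lower in roots.

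Of 29 listed WRKY genes, 4 were members: WRKY41, WRKY33, WRKY22 and WRKY6, factors best known from defence and wound responses. WRKY22 (Solyc10g011910) had 57.5, 119 and 77.3 counts after 30 min at 4°C, against 6.79, 4.27 and 5.91 at 24°C, a difference of 3.64 (standard error 0.30, adjusted p = 7.56e-08). Its T0 replicates 4 to 6 held 58.5, 41.2 and 37.5. The ambient libraries thus lay below all of them and the chilled ones overlapped them. By 3 h it stood at 428, 390 and 361 at 4°C, against 33.3, 18.7 and 17.7 at 24°C. In roots the 7184, 6735 and 5974 counts at 4°C overlapped the T0 range of 5384 to 7615, against 808, 711 and 1051 at 24°C (log2 difference 2.97, standard error 0.16, adjusted p = 6.86e-07).

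WRKY33 (Solyc09g014990, which another table of the study names WRKY2) was higher by 2.82 at 30 min (adjusted p = 4.24e-07) and by 1.66 in roots (adjusted p = 0.00119), and WRKY41 (Solyc01g095630) by 2.66 and 4.09. WRKY6 (Solyc02g080890) was called in roots at 1.74, with 0.78 and an adjusted p of 0.0248 at 30 min. In shoots at 3 h WRKY6 differed least of the 4, with 256, 231 and 247 counts at 4°C, against 111, 86.0 and 93.7 at 24°C. Of the listed WRKY genes tested, 10 of 25 were called higher and 0 lower at 30 min, and 19 of 29 higher and 7 lower in roots.

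The GRAS and MYB members gave mixed results. PAT1 (Solyc07g063940), a GRAS factor named after a phytochrome A signalling gene of Arabidopsis, had 22034, 20156 and 16968 counts in roots at 4°C, against 1491, 1380 and 1722 at 24°C, a difference of 3.68 (standard error 0.22, adjusted p = 1.14e-06). At 30 min its difference of 1.62 had an adjusted p of 0.0272, with 2177, 4073 and 1122 counts at 4°C, against 765, 656 and 676 at 24°C. Of the 2 genes named MYB15, a repressor of CBF genes in Arabidopsis, Solyc09g090130 was called higher at 30 min by 1.55 and in roots by 0.93, the root call being lost in 5 of 14 alternatives. Solyc03g005570 was called in neither, at 0.95 and 1.21, with adjusted p of 0.0289 and 0.0624. Its root T0 libraries spread widely, at 375, 327 and 1614.

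ZAT10 (Solyc12g088390), a C2H2 zinc finger factor that represses transcription in Arabidopsis, had opposite differences in the 2 organs. In shoots it had 510, 533 and 385 counts after 3 h at 4°C, against 5.99, 2.01 and 4.33 at 24°C and 10.5 to 78.7 at T0. In roots it had 310, 322 and 465 at 4°C, against 596, 743 and 725 at 24°C and 310, 263 and 522 at T0. All chilled root libraries thus lay below all ambient ones and within the T0 range. The root difference was -0.93 (standard error 0.25, adjusted p = 0.00921), and this call was lost in 7 of 14 alternatives, the rescaling over nuclear genes among them (-0.82, adjusted p = 0.0156), with adjusted p from 0.000798 to 0.0377. At 30 min in shoots its chilled libraries overlapped those at 24°C, and the difference of 1.01 was not called (adjusted p = 0.250). Of the 10 genes that carry the names of first-wave cold factors in the study's text, ERF5, WRKY22, WRKY33 and ZAT10 were members, and ZAT10 was the 1 gene of the 10 called lower in roots, where 9 were called higher. Those 10 also come from the study's table of responding factors.

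**Figure D4:**
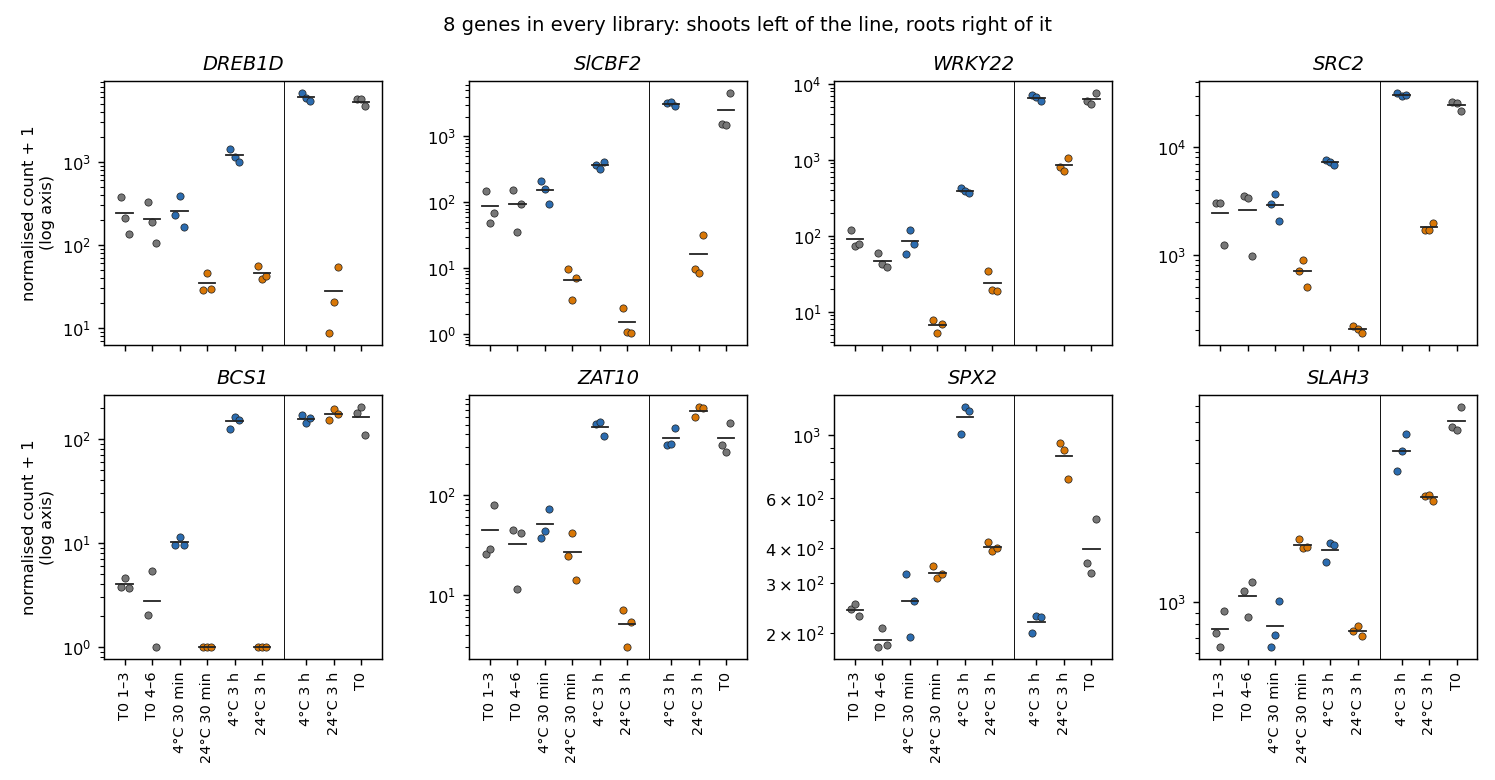
Normalised counts plus 1 (y axis, log scale) of 8 genes in every library, with shoot groups left and root groups right of the vertical line; points are libraries and bars group means. DREB1D, SlCBF2, WRKY22 and SRC2 are lower at 24°C than at T0 in both organs, BCS1 is listed at 0 in shoots at 24°C and is level in roots, and in roots ZAT10 and SPX2 are higher at 24°C than at 4°C.

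Among signalling genes, both copies of CML38, a calmodulin-like calcium sensor, were members, and reads of alike copies may have been divided between them. CML38 on chromosome 11 (Solyc11g071740) had 11424, 9900 and 8040 counts in roots at 4°C, against 100, 90.4 and 225 at 24°C and 9118 to 11961 at T0 (log2 difference 6.24, standard error 0.30, adjusted p = 3.57e-07). In shoots after 30 min it had 495, 724 and 327 at 4°C, against 103, 149 and 105 at 24°C, a difference of 2.05 (standard error 0.44, adjusted p = 0.00417) that was lost in 5 of 15 alternatives. CML38 on chromosome 6 (Solyc06g073830) was called in roots at 3.24 and had an adjusted p of 0.014 at 30 min with 1.79. Over the calcium list of 18 genes, 3 of 16 tested were called higher and 0 lower at 30 min, and 10 of 16 higher and 3 lower in roots. This list, like the ubiquitin ligase, jasmonate, kinase, receptor and cell wall lists below, was drawn from names in the study's tables of cold-responsive genes. Such counts are not independent evidence of a direction.

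PUB22 (Solyc01g007020) and PUB25 (Solyc01g107980) are U-box ubiquitin ligases, of which PUB22 limits immune signalling and PUB25 acts in cold tolerance in Arabidopsis. PUB22 had 2814, 2658 and 2816 counts in roots at 4°C, against 296, 346 and 350 at 24°C (3.06, standard error 0.11, adjusted p = 8.16e-08), and was called at 30 min at 1.15 (adjusted p = 0.00684, up to 0.0343 over 15 alternatives). PUB25 was called in roots at 0.93, with 0.55 and an adjusted p of 0.0106 at 30 min. Among the 12 ubiquitin ligases tested, 6 were called higher and 0 lower at 30 min, and 9 higher and 2 lower in roots. CRK8 (Solyc05g005260), a cysteine-rich receptor-like kinase, was among the most even: its chilled shoots held 1298, 1332 and 1175 counts at 30 min, against 304, 398 and 339 at 24°C (1.88, standard error 0.13, adjusted p = 4.42e-09). Its roots held 6578, 6564 and 5914 at 4°C, against 1016, 1015 and 1341 at 24°C (2.51, standard error 0.17, adjusted p = 3.03e-06).

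The cell wall members were 4 genes named XTH23, which encode xyloglucan endotransglucosylases that loosen or rebuild walls. They lie close together on chromosome 3 (Solyc03g093080, Solyc03g093110, Solyc03g093120 and Solyc03g093130), beside PS3 (Solyc03g093140), so reads may be shared among near-identical copies and each value is uncertain to that extent. Solyc03g093110 had 3334, 3122 and 2723 counts in shoots after 3 h at 4°C, against 18.0, 21.8 and 35.2 at 24°C and 279 to 715 at T0. All 4 were called higher in roots at 4°C, by 4.40 to 5.19, and at 30 min Solyc03g093110 (1.75, adjusted p = 0.000868) and Solyc03g093120 (1.66, adjusted p = 0.00413) were called, with Solyc03g093120 losing its call in 6 of 15 alternatives. In roots the third chilled library was the lowest for each of the 4 genes, at 3023 counts against 6761 and 6059 in Solyc03g093110. PS3 next to them, a transporter gene named for phosphate starvation, differed by 0.02 at 30 min (adjusted p = 0.971) and by 0.48 in roots (adjusted p = 0.00193).

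Both emb1075 members, named after the Arabidopsis serine decarboxylase gene, are neighbours on chromosome 8, and their reads may also be shared. Solyc08g068600 had 1006, 640 and 699 counts after 30 min at 4°C, against 96.0, 103 and 80.0 at 24°C, a difference of 3.04 (standard error 0.19, adjusted p = 1.05e-09), and 470 to 566 at T0 of that batch. Its roots held 10936, 10183 and 5992 at 4°C, against 976, 1194 and 1162 at 24°C (2.98, standard error 0.30, adjusted p = 3.28e-05). Solyc08g068610 was higher by 3.43 and 3.84 in the same contrasts.

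Of the 6 cryoprotectant synthesis genes that the study names, TPS7 and HAD, both of its trehalose pair, were members. TPS7 (Solyc02g072150), a trehalose-phosphate synthase gene, had 5642, 5009 and 4967 counts in shoots after 3 h at 4°C, against 1181, 1120 and 1202 at 24°C. It was called higher at 30 min by 0.78 (standard error 0.14, adjusted p = 0.000949) and in roots by 2.74 (standard error 0.22, adjusted p = 8.16e-06), where it had 25054, 23206 and 20238 at 4°C, against 3186, 2840 and 4357 at 24°C. HAD (Solyc04g072920), which takes its name from the haloacid dehalogenase fold of phosphatases, reached 688, 704 and 725 in chilled shoots, against 64.7, 63.0 and 87.1 at 24°C. In roots HAD had 3424, 3505 and 3155 at 4°C, against 2645, 3057 and 2910 at 24°C, and the difference of 0.23 was not called (adjusted p = 0.0619). It was called in 1 of 14 alternatives, the rescaling over nuclear genes, at 0.34 (adjusted p = 0.00737). Over the 6 genes, 2 were called higher at 30 min and 5 in roots, and 0 lower. The study presents these genes as higher in the cold in both organs, from these same samples. The counts are thus a description and not independent evidence of a direction.

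Several members varied among libraries of 1 group far more than others. AOS (Solyc04g079730), the allene oxide synthase of jasmonate synthesis, had 5474, 3264 and 1563 counts in shoots after 3 h at 4°C, against 165, 168 and 207 at 24°C. Its T0 libraries held 2066, 1959 and 159 in replicates 1 to 3 and 1108, 1192 and 111 in replicates 4 to 6. In each of these sets 1 shoot T0 library thus lay far below the other 2. Without shoot T0 replicate 3 the shoot ratio of 4°C to T0 was 1.71, under the cutoff of 2. Without root T0 replicate 1 or 2 the root ratio of 4°C to T0 was 1.41 or 1.59. AOS met the rule in 10 of 15 settings that leave out 1 library. After 30 min it had 1343, 4645 and 496 counts at 4°C, against 537, 328 and 427 at 24°C, and the difference of 1.78 was not called (adjusted p = 0.250). In roots the difference of 6.04 (standard error 0.68, adjusted p = 5.76e-05) rested on 11660, 8559 and 2912 counts at 4°C, against 92.7, 90.4 and 118 at 24°C.

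T0 replicates 3 and 6 were also the lowest shoot T0 libraries for SRC2 (Solyc01g099370), named after a cold-regulated soybean gene, at 1239 and 967 against 3045 to 3516 in the other 4. Its chilled shoots held 7495, 7321 and 6754 at 3 h, against 218, 204 and 187 at 24°C, and its chilled roots 31659, 29414 and 30550 counts, against 1712, 1684 and 1987 at 24°C (4.09, standard error 0.09, adjusted p = 3.07e-09). LEA14 (Solyc01g095140), of the late embryogenesis abundant proteins that protect cells from drying, held 1925, 1007 and 474 counts at T0 in replicates 1 to 3, and met the rule in 8 of the 15 settings. It was called in roots at 3.18 (adjusted p = 0.000117) and not at 30 min (0.19, adjusted p = 0.836). Of the 12 jasmonate genes listed, which include AOS, 0 were called higher and 1 lower at 30 min, with a median of 1.67, and 10 of 11 were called higher in roots, with a median of 5.60.

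A smaller set of members was lower at 4°C than at 24°C in roots, or level there. SPX2 (Solyc12g009480), whose product senses phosphate status, had 199, 228 and 226 counts in roots at 4°C, against 937, 883 and 699 at 24°C and 353, 326 and 502 at T0. The root difference was -1.93 (standard error 0.17, adjusted p = 1.32e-05), the lowest among the 114 genes. In shoots SPX2 had 1006, 1251 and 1213 after 3 h at 4°C, against 417, 389 and 398 at 24°C and 177 to 253 at T0, so here the ambient level also lay above T0. At 30 min the difference in shoots was -0.365 and was not called (adjusted p = 0.111).

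UPM1 (Solyc01g086650), an enzyme gene of siroheme synthesis, had 3252, 3201 and 3056 counts in roots at 4°C, against 5388, 5180 and 5543 at 24°C (-0.76, standard error 0.08, adjusted p = 3.97e-05). In shoots after 30 min it had 934, 1154 and 943 at 4°C, against 708, 700 and 707 at 24°C, and was called higher than 24°C by 0.51 (adjusted p = 0.00233) and higher than T0 by 0.53 (adjusted p = 0.00169). The call against 24°C was lost in 3 of 15 alternatives, with adjusted p up to 0.0154, and that against T0 in 2 of 14, with adjusted p up to 0.0394. It was the member called higher at 30 min and lower in roots. MAPKKK21 (Solyc02g090980), a protein kinase gene at the head of a MAP kinase cascade, had low values, with 22.0, 34.7 and 18.8 in roots at 4°C, against 43.1, 46.6 and 83.3 at 24°C and 88.5, 98.4 and 109 at T0. Its difference of -1.15 (adjusted p = 0.00775) lost its call in 7 of 14 alternatives. Solyc03g123400, an unnamed GRAS factor gene, was lower in roots by 1.64 on the log2 scale (standard error 0.26, adjusted p = 0.000446), with 160, 111 and 124 at 4°C, against 386, 442 and 397 at 24°C.

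BCS1 (Solyc10g079630), named after a mitochondrial AAA-ATPase, was the member with the highest ratio to T0 in shoots. It had 124, 163 and 153 counts after 3 h at 4°C, was listed at 0 in all 3 libraries at 24°C, and had 0 to 4.36 at T0. At 30 min it already had 8.51, 10.4 and 8.57 at 4°C, was again listed at 0 at 24°C, and was called higher (adjusted p = 0.000500). In roots its 169, 142 and 156 counts at 4°C overlapped the 152, 193 and 172 at 24°C and the 178, 201 and 107 at T0, with a difference of -0.14 (adjusted p = 0.591).

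SLAH3 (Solyc03g007770), a slow anion channel gene, went the other way at 30 min. It had 638, 716 and 1005 counts at 4°C, against 1870, 1716 and 1721 at 24°C, and was lower by 1.20 on the log2 scale (standard error 0.15, adjusted p = 2.71e-05). After 3 h it had 1493, 1790 and 1768 counts at 4°C, against 745, 786 and 712 at 24°C, so the order of the temperatures was turned round. SIB1 (Solyc10g078440), named after a sigma factor binding protein, had 311, 326 and 355 at 4°C, against 115, 128 and 124 at 24°C after 3 h, and was called neither at 30 min (-0.09, adjusted p = 0.851) nor in roots (0.73, adjusted p = 0.105).

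The 114 genes that met the shoot conditions and passed the root ceiling are the closest to set beside the 114 described here. At 30 min 46 of the 114 members were called higher at 4°C than at 24°C, and 43 of 114 in the other set, with medians of 1.16 and 1.04. At 24°C in shoots 78 members stood at or below 0.5 of T0 after 3 h, against 72 in the other set. In roots at 24°C 82 members and 74 of the other set were called lower than T0, with median log2 differences of -1.84 and -2.03. In roots 76 members and 96 of the other set were called higher at 4°C than at 24°C, and 13 and 0 lower, and the root 4°C and T0 libraries in these contrasts are those by which the 2 sets were parted. No test of a difference between the sets was made.

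By their IDs, 25 of the 114 genes (21.9%) lie on chromosome 3, which carries 10.5% of the IDs in both tables. Of the 114 genes, 29 fall into 13 runs of IDs at most 100 apart, and 11 of these 29 are on chromosome 3, the XTH23 genes and PS3 among them. How often other IDs fall into such runs was not computed, so the part of neighbours in the chromosome 3 share was not tested. Names were found for 48 of the 114, so the other 66 are described mainly by the counts above.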

How the data were processed

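RNA-seq libraries of 18 shoot and 9 root samples were used. As the study's methods state, the authors aligned reads with BBMap to the tomato ITAG reference with both organelle genomes added, took read counts from featureCounts of the Subread package and normalised the counts with edgeR's TMM method. The deposited values are this normalised signal, a table for each organ, not whole reads, so no count model was run, depth cannot be read from them and precision rests on the spread between libraries. Libraries were grouped by the labels, and the batch of the root libraries is not given in the sources used here.

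Tests used limma 3.58.1 in R 4.3.3 on log2(value + 1), with a variance trend and Benjamini-Hochberg adjustment over the features of an organ that reached 10 in 3 or more of its libraries, called at an adjusted p under 0.01. The shoot model held 6 groups, with T0 replicates 1 to 3 and 4 to 6 apart, and the root model 3. Log2 differences are on the log2(value + 1) scale and understate changes of low genes. p-values measure the spread between pools. The model was tested on simulated data.

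The members and gene lists were chosen with earlier results of these data known. Gene names come from the study's text and tables, many being best matches in Arabidopsis. Named were members with the largest or smallest differences in the contrasts at 30 min, in roots and at 3 h in shoots, up to 4 of each list, and named genes next to a cutoff. A few unnamed factor genes were added by ID. Alternatives were other pseudocounts, filters, thresholds, scaling, T0 libraries, moderation, member cutoffs, a replicate block and each library left out.

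Gene lists not counted in the report gave these calls for 4°C against 24°C. At 30 min in shoots, 2 of 9 kinases were higher and 0 lower, 2 of 10 receptors higher and 1 lower, 3 of 9 cell wall genes higher and 0 lower, 3 of 22 C2H2 factors higher and 3 lower, 4 of 20 GRAS factors higher and 5 lower, and 7 of 62 MYB factors higher and 5 lower. In roots, 7 of 10 kinases were higher and 1 lower, 3 of 9 receptors higher and 1 lower, 5 of 10 cell wall genes higher and 4 lower, 7 of 25 C2H2 factors higher and 14 lower, 11 of 21 GRAS factors higher and 10 lower, and 32 of 70 MYB factors higher and 26 lower. Lists with no member are not reported here.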

Additional observations from a re-analysis of the deposited data

Results flagged for a closer look

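In 5 members described singly above, Solyc03g123400 by ID alone, the 4°C libraries lay above all 24°C libraries in shoots at 3 h. The rule fixed that direction. In roots the 4°C libraries of these members lay below all 24°C ones. The log2 differences in roots were -0.928 in ZAT10, -0.76 in UPM1, -1.64 in Solyc03g123400, -1.15 in MAPKKK21 and -1.93 in SPX2. The difference between organs was not tested, since shoots and roots were normalised apart. In all, 14 of the 114 members showed this pattern. The root side alone, all 3 chilled libraries below all 3 at 24°C, held in 15 of the 114 members and in 41.7% of all features. Dixon's test at 95% was run on the 42 genes selected for single description, some by ID alone. In 0 of them did a single library stand apart among the 6 shoot T0 libraries, where chance gives about 1 in 20. This test can miss cases where 2 libraries are low together, as T0 replicates 3 and 6 were for AOS and SRC2, so the 0 says little about spread.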

How the results depend on the processing

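The number of members was 104 to 133 with 1 library left out, 218 with 1.5-fold cutoffs in shoots and 66 with a root ceiling of 1. The 5 members called higher at 4°C than at T0 after 30 min were 1 with only the compared libraries, 2 with the T0 libraries as 1 group, 16 at an adjusted p under 0.05, and 1 to 6 with 1 library left out, the 1 occurring without 4°C replicate 1 and without T0 replicate 6. The other counts stayed within 1.5 times under every alternative run: 38 to 66 members called between 4°C and 24°C at 30 min, 28 to 54 between 24°C and T0 at 30 min, 81 to 95 between 4°C and 24°C in roots and 81 to 96 between 24°C and T0 in roots. No direction was reversed. With a replicate block the counts were 60 for 4°C against 24°C at 30 min, 84 in roots and 88 for 24°C against T0 in roots. Same-number correlations were -0.0561 to 0.445 in shoots (different numbers -0.333 to 0.245) and -0.12 to 0.0332 in roots (different numbers -0.0969 to 0.177). Not every pair passed 0.1, so the numbers were not taken to pair the samples. No paired analysis was possible because T0 replicates 4 to 6 share no number with the 30 min libraries, for the contrasts with these. Of the genes selected for single description, 24 were called between 4°C and 24°C at 30 min, and 17 kept their call under every alternative. Of 37 called between 4°C and 24°C in roots 34 did. The values do not carry depth, so what it limits was not assessed.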
